A study of Mus musculus with 96 samples.

Results

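The striatum and the cerebral cortex of 8 Q140 mice were compared with each other, and that regional difference was then set against the same difference in 8 wild-type mice. The 8 striatal and 8 cortical Q140 libraries are those labelled as heterozygous for the Q140 knock-in with no change to Msh6, which makes 16 of the 96 libraries of the series. In Q140 mice 1 copy of Htt, the gene mutated in Huntington's disease, carries a long CAG repeat introduced by knock-in. The allele is carried in the germ line, so it is present in all cells of both tissues. The wild-type mice gave 8 striatal and 8 cortical libraries. Another 16 mice, Msh6+/- or Msh6-/- without Q140, served to choose the genes of the per-mouse scores, and 16 further mice with Q140 and Msh6+/- or Msh6-/- served to repeat the comparison. Msh6 encodes a subunit of the DNA mismatch recognition complex. All animals were on a C57BL/6 background and 6 months old, each genotype had 4 males and 4 females, and each mouse gave both tissues. The libraries hold RNA of whole dissected tissue, in which fewer cells of a type and less RNA per cell cannot be told apart.

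The striatum consists mostly of GABAergic projection neurons. Those of the direct pathway carry the dopamine D1 receptor, those of the indirect pathway carry the D2 receptor and the adenosine receptor encoded by Adora2a, and both kinds signal through cyclic AMP. The cortex is built mainly from glutamatergic pyramidal neurons, with GABAergic interneurons among them. Striatal projection neurons are the cells most affected in Huntington's disease, and the genes that mark them are known to be expressed at lower levels in its mouse models. Setting the 2 tissues of a mouse against each other shows which of the features that set striatum apart from cortex remain with the knock-in allele.

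Depth was similar in the groups, at 15.81 to 20.6 M counts (1 M is 1000000) in Q140 striatum, 16.81 to 21.7 M in Q140 cortex, 15.88 to 19.91 M in wild-type striatum and 16.73 to 21.43 M in wild-type cortex. Each of these 32 libraries correlated with its group's median profile at r of 0.995 or more across genes. The tissue labels were borne out by markers. The summed level of 9 striatal marker genes, which include Drd1, Drd2 and Penk, was 6127 to 6601 CPM in Q140 striatum and 233 to 270.1 CPM in Q140 cortex, against 9961 to 11430 CPM in wild-type striatum and 234 to 290.5 CPM in wild-type cortex. The summed level of 9 cortical marker genes, which include Slc17a7 and Tbr1, was 38.2 to 45.4 CPM in Q140 striatum and 2022 to 2252 CPM in Q140 cortex, against 31.7 to 44.0 CPM in wild-type striatum and 2167 to 2320 CPM in wild-type cortex. None of the 18 markers was at 0 over a group.

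Throughout, the regional difference of a gene is the log2 ratio of its level in striatum to its level in cortex of the same mouse. It is positive for a striatum-higher gene and negative for a cortex-higher gene. The change is the regional difference in Q140 mice minus that in wild-type mice. CPM are counts per 1000000 library counts after TMM scaling. Errors after ± are SE of the fitted log2 values, and genes were called at an adjusted p below 0.05 in edgeR's quasi-likelihood test, with Benjamini-Hochberg adjustment over the 18440 genes tested. Coordinates are those of GENCODE M21 on GRCm38.

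The 2 tissues differed widely in Q140 mice. Of the 18440 genes, 6951 were called higher in striatum (37.7%) and 6441 higher in cortex (34.9%), together 72.6%. By at least 2-fold, 1518 and 1907 of them differed. In wild-type mice 6797 genes were higher in striatum (36.9%) and 6880 higher in cortex (37.3%), together 74.2%. The striatum-higher calls shared 5859 genes, which are 84.29% of the Q140 calls and 86.2% of the wild-type calls. The cortex-higher calls shared 5795 genes, 89.97% of the Q140 calls and 84.23% of the wild-type calls. Across all genes tested the regional differences of the genotypes had a Pearson r of 0.964, as a description over genes that share libraries and depth.

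The regional difference itself changed in 3395 genes (18.4%). It was higher in Q140 than in wild-type mice in 1769 genes (9.59%) and lower in 1626 (8.82%), and the change was at least 2-fold in 65 and 96 of them. The within-mouse differences of the 8 Q140 and 8 wild-type mice did not overlap in 707 genes (3.83%), with the Q140 mice higher in 309 (1.68%) and lower in 398 (2.16%). The median change over all genes was 0.015, and its sign depended on the setting. This median was -0.0039 with RLE scaling, -0.0038 in DESeq2, -0.0075 with no filter on low counts and -0.0072 with the 32 libraries alone. On log2 FPKM plus 0.1 it was 0.066. Without Q140 mouse 24-1 it was -0.0087, and without wild-type mouse 13-1 -0.0056. The share of higher calls depended on the setting. It was 52.1% as reported, 43.2% with RLE scaling, 41.1% with the 32 libraries alone, 42.4% in DESeq2, 38.6% with no filter on low counts, and 74.6% and 74.1% on log2 FPKM plus 0.1 and plus 1. Without Q140 mouse 24-1 it was 39.6%, and without wild-type mouse 13-1 it was 41.2%.

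**Figure D1:**
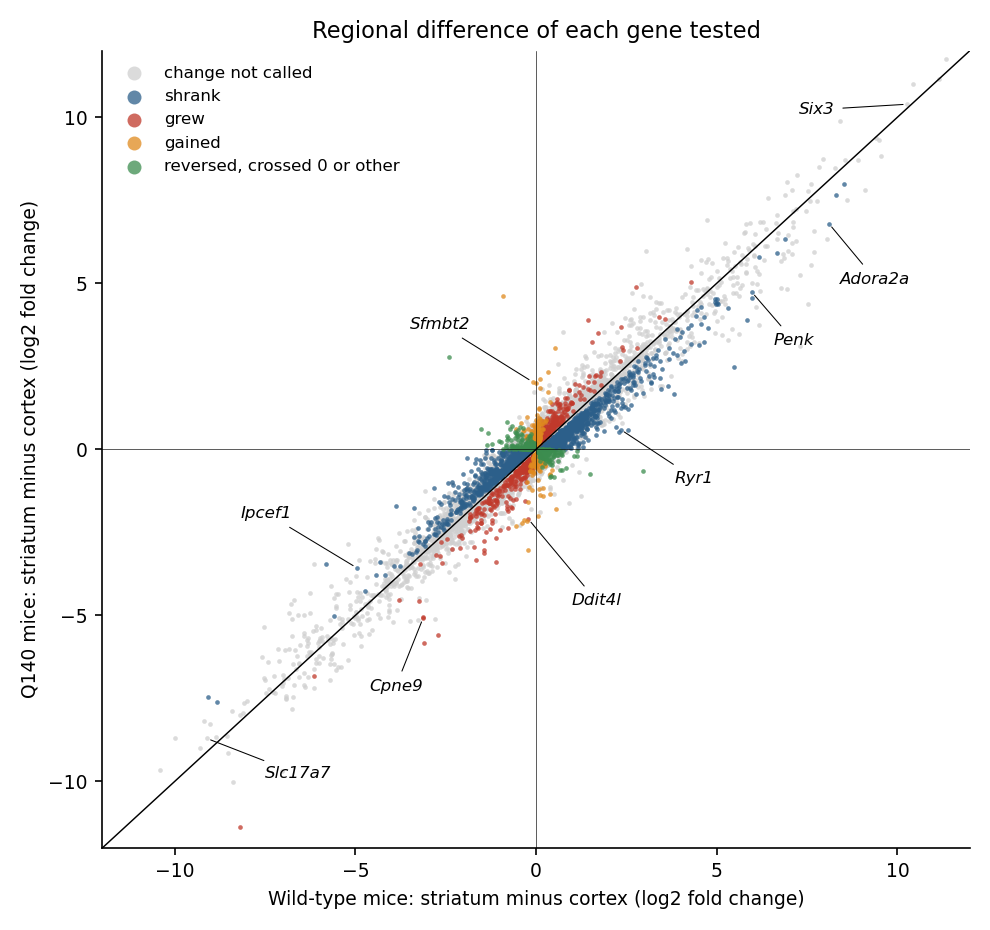
Regional difference of each of the 18440 genes tested, striatum minus cortex as a log2 fold change, in the 8 Q140 mice (vertical axis) and in the 8 wild-type mice (horizontal axis), with the line of equal differences. Blue points (1921 genes that shrank) lie between that line and the horizontal zero line, red points (613 that grew) lie beyond the line, and Six3, at 10.39 in Q140 mice and 10.27 in wild-type mice, lies near the line at its upper end.

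Genes were sorted by their side in wild-type mice and by what the change did. Among striatum-higher genes the difference shrank in 937 (median change -0.28), and 804 of those were still called striatum-higher in Q140 mice. Among cortex-higher genes it shrank in 984 (median change 0.23), and 819 of those were still called cortex-higher. The difference grew in 284 striatum-higher and 329 cortex-higher genes. It was gained, meaning called in Q140 mice alone with a called change, in 261 genes on the striatal side and 167 on the cortical side. Without Q140 mouse 24-1 the gained genes numbered 162 and 188, with no filter 152 and 181, with the 32 libraries alone 173 and 181, and without wild-type mouse 13-1 196 and 206, so which side had more depended on the setting. The difference reversed, with opposite calls in both genotypes, in 65 genes that were striatum-higher in wild-type mice and 68 that were cortex-higher. The 68 became 45 without mouse 24-1 and 45 without mouse 13-1, and the 284 striatum-higher genes that grew became 186 without mouse 13-1. In 124 striatum-higher and 166 cortex-higher genes the fitted difference crossed 0 without a call in Q140 mice. The difference was kept, with the 95% interval of the change inside -0.3 to 0.3, in 2733 striatum-higher and 2531 cortex-higher genes. Another 2038 and 2116 genes were called on the same side in both genotypes, with an interval too wide to place them.

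This sorting used the wild-type values both for the side and inside the change, so it was repeated with sides taken from the 16 other mice without Q140. By those mice, 1695 genes were at least 2-fold higher in striatum. Their change was called lower in 369 and higher in 40, together 24.13%, with a median of -0.11. Another 2019 genes were at least 2-fold higher in cortex. Their change was called higher in 303 and lower in 90, together 19.47%, with a median of 0.079. Among the 3429 genes that those mice did not call on either side, 9.39% had a called change, 196 higher and 126 lower.

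Most genes whose regional difference changed were called in striatum and not in cortex. Within striatum, Q140 and wild-type mice differed in 5201 of 17503 genes (29.7%), and within cortex in 3 of 17622 genes (0.017%). Of the 937 striatum-higher genes that shrank, 877 were called lower in Q140 striatum and 1 was called in cortex, where it was higher. Of the 984 cortex-higher genes that shrank, 871 were called higher in Q140 striatum and 0 were called in cortex by edgeR. Among the genes that grew, 253 of the 284 striatum-higher ones were called higher in Q140 striatum and 300 of the 329 cortex-higher ones lower there.

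Each mouse was also given 3 scores, with the genes and their sizes taken from the 16 other mice. The median striatum minus cortex difference over the 1695 striatum-higher genes was 1.381 to 1.572 log2 CPM in Q140 mice (median 1.519) and 1.473 to 1.687 in wild-type mice (median 1.596). The groups overlapped, with 2 Q140 mice below all wild-type mice. The means were 1.502 ± 0.0756 and 1.59 ± 0.0643 (SD, n = 8 each), a difference of -0.0879 (exact two-sided permutation test over 12870 splits, p = 0.0266, adjusted over the 3 scores 0.0266). Without Q140 mouse 24-1 the difference was -0.0705 (exact p = 0.0502), which is not past the threshold. For the 2019 cortex-higher genes the score was -1.684 to -1.607 in Q140 mice and -1.784 to -1.651 in wild-type mice, with means of -1.647 ± 0.0336 and -1.714 ± 0.0548, a difference of 0.0663 (exact p = 0.0135, adjusted 0.0203). With genes at least 4-fold higher in cortex the difference was 0.0654 (exact p = 0.13), again not past the threshold.

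The third score is the slope of a mouse's regional differences on those of the 16 other mice over all 3714 genes, where 1 means regional differences of the same size. Q140 mice had slopes of 0.902 to 0.959 (median 0.939), and wild-type mice had slopes of 0.938 to 1.007 (median 0.984). Here 3 Q140 mice lay below all wild-type mice, and the lowest wild-type mouse, 13-1, lay among the Q140 mice. The mean slope was 0.938 ± 0.0165 in Q140 mice and 0.984 ± 0.0214 in wild-type mice (SD, n = 8 each), a difference of -0.046 (exact p = 0.000932, adjusted 0.0028). The difference was -0.0408 without Q140 mouse 24-1 and -0.0525 without wild-type mouse 13-1.

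**Figure D2:**
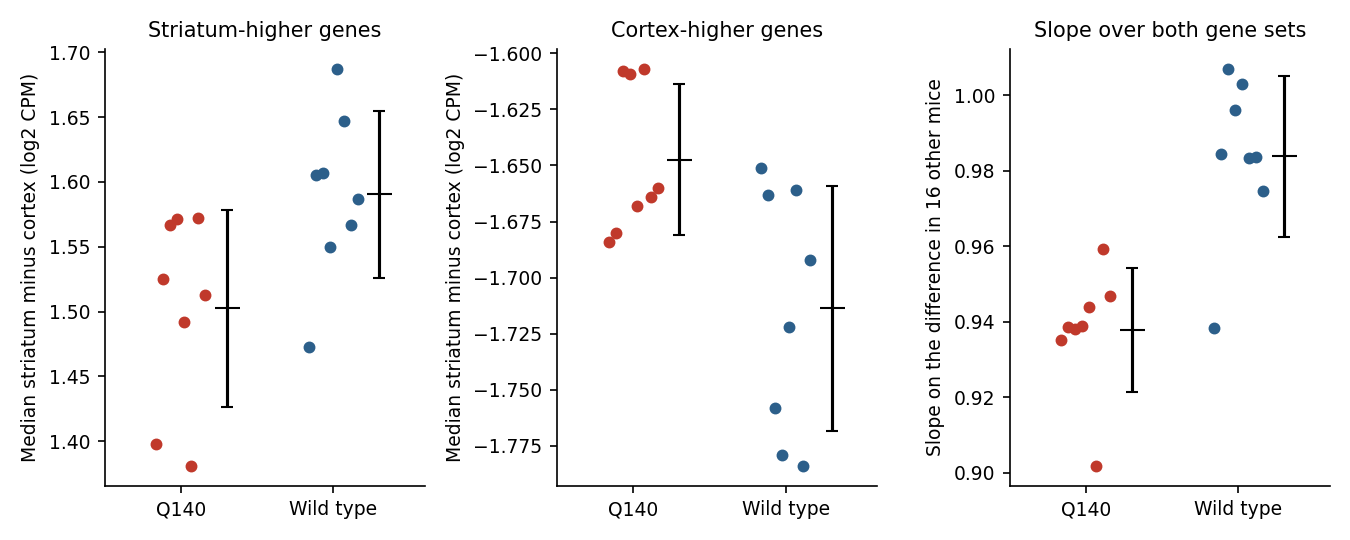
Regional contrast scores of the 8 Q140 mice (red, left) and 8 wild-type mice (blue, right) with group means and SD: the median log2 CPM difference, striatum minus cortex, over 1695 striatum-higher genes and over 2019 cortex-higher genes, and the slope over both sets. Q140 slopes run from 0.902 to 0.959 and wild-type slopes from 0.938 to 1.007, and the groups overlap in each panel.

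The largest striatum-higher differences of Q140 mice belonged to genes that are close to absent from cortex. Six3 (ENSMUSG00000038805, chromosome 17, 85613608 to 85629302), a homeobox factor of developing indirect pathway neurons, lay at 77.8 to 96.3 CPM (median 86.6) in Q140 striatum and 0 to 0.158 CPM (median 0.0262) in Q140 cortex. Wild-type Six3 was at 70.2 to 88.6 CPM (median 81.2) in striatum and 0 to 0.303 CPM (median 0.0235) in cortex. Its cortical level rests on 9 counts over 8 libraries in each genotype. Six3 differed between the tissues by 10.39 ± 0.54 in Q140 mice and 10.27 ± 0.54 in wild-type mice, and the 95% interval of the change, -1.403 to 1.64, is too wide to place it. Drd2 (ENSMUSG00000032259, chromosome 9, 49340627 to 49408177), the D2 dopamine receptor, lay at 152 to 183 CPM (median 166) in Q140 striatum and 0.1399 to 0.578 CPM (median 0.429) in Q140 cortex. Wild-type Drd2 was at 228 to 289 CPM (median 252) in striatum and 0.239 to 1.11 CPM (median 0.4602) in cortex. All 8 Q140 striata were below all 8 wild-type striata, yet the regional difference, 8.72 ± 0.22 in Q140 mice and 8.903 ± 0.19 in wild-type mice, had a change of -0.18 ± 0.29 that did not pass the test (adjusted p = 0.75), with cortical levels near or under 1 CPM. Rxrg, the retinoid X receptor gamma, had a difference of 6.84 ± 0.18 in Q140 mice and 7.11 ± 0.16 in wild-type mice, with a change that did not pass the test (-0.27 ± 0.24, adjusted p = 0.509).

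Other genes with a large striatal excess passed the test. Syndig1l, which encodes a transmembrane protein related to a synapse differentiation factor, had a regional difference of 7.999 ± 0.12 in Q140 mice and 8.53 ± 0.11 in wild-type mice, a change of -0.53 ± 0.16 (adjusted p = 0.015), and Lrrc10b, a leucine-rich repeat gene, one of 7.65 ± 0.16 in Q140 mice and 8.303 ± 0.15 in wild-type mice, a change of -0.66 ± 0.22 (adjusted p = 0.0318). Both calls were lost without the mouse as a block and in DESeq2. Their within-mouse differences overlapped between the genotypes, from 7.703 to 8.64 in Q140 and 7.93 to 8.92 in wild-type mice for Syndig1l. Adora2a (ENSMUSG00000020178, chromosome 10, 75316877 to 75334784), an adenosine receptor of indirect pathway neurons, lay at 231 to 269 CPM (median 254) in Q140 striatum and 1.61 to 3.07 CPM (median 2.38) in Q140 cortex. Wild-type Adora2a was at 401 to 495 CPM (median 459.7) in striatum and 0.897 to 2.12 CPM (median 1.76) in cortex. Adora2a differed between the tissues by 6.79 ± 0.11 in Q140 mice and 8.11 ± 0.13 in wild-type mice, a change of -1.32 ± 0.18 (adjusted p = 4.30e-08). The within-mouse differences did not overlap, from 6.29 to 7.26 in Q140 mice and from 7.68 to 8.83 in wild-type mice.

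Among genes with a mean of at least 1 log2 CPM, the steepest loss of a striatum-higher difference was that of Ryr1 (ENSMUSG00000030592, chromosome 7, 29003344 to 29125179), a ryanodine receptor that releases calcium from internal stores. Its level was 35.2 to 66.4 CPM (median 52.5) in Q140 striatum and 26.9 to 40.8 CPM (median 35.8) in Q140 cortex. Wild-type Ryr1 was at 133 to 195 CPM (median 165) in striatum and 28.1 to 35.5 CPM (median 32.8) in cortex. Every Q140 striatum was below every wild-type striatum, while the cortical ranges overlapped. The regional difference was 0.59 ± 0.073 in Q140 mice and 2.34 ± 0.0696 in wild-type mice, a change of -1.75 ± 0.101 (adjusted p = 8.11e-20), and in 1 of the 8 Q140 mice striatum was no longer above cortex. Clspn (ENSMUSG00000042489, chromosome 4, 126556935 to 126593903), whose product claspin is a checkpoint adaptor of DNA replication, lay at 8.06 to 13.8 CPM (median 10.7) in Q140 striatum and 0.168 to 0.707 CPM (median 0.443) in Q140 cortex. Wild-type Clspn was at 22.8 to 33.5 CPM (median 26.01) in striatum and 0.192 to 0.959 CPM (median 0.373) in cortex. Clspn differed between the tissues by 4.56 ± 0.21 in Q140 mice and 5.97 ± 0.21 in wild-type mice, a change of -1.41 ± 0.302 (adjusted p = 0.000439), and 6 of 8 Q140 mice lay below all wild-type mice.

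The 250 bases before the RefSeq start of Ryr1 and Clspn, the named striatum-higher genes with the largest loss among those in the RefSeq promoter table of GRCm38.p6, are shown 5′ to 3′ on the gene's strand, with CG dinucleotides in capitals. The Ryr1 stretch is chr7:29125152-29125401 on the minus strand and holds 6 CG dinucleotides. The Clspn stretch is chr4:126556730-126556979 on the plus strand and holds 13. The RefSeq start of each gene lies inside its GENCODE boundaries, so both stretches reach into the GENCODE gene.
Ryr1: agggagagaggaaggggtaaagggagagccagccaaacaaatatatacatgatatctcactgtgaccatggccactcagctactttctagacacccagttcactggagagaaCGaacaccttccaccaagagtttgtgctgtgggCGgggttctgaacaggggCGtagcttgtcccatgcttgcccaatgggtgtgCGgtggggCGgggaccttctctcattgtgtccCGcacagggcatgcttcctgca
Clspn: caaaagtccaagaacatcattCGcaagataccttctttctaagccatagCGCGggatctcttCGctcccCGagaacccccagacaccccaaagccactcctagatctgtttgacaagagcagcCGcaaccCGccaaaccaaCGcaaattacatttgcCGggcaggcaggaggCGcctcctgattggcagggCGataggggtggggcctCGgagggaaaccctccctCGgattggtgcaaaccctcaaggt
Neither stretch holds TATAAA, TGACGTCA or TGACG on either strand. TGACG lies within TGACGTCA, the full cyclic AMP response element. Among 11996 promoter stretches of tested genes, 6.64% hold TATAAA, 2.69% hold TGACGTCA and 25.7% hold TGACG. Among 662 of the 937 striatum-higher genes that shrank these shares were 6.5%, 2.27% and 23.9%, and among 728 of the 984 cortex-higher genes that shrank they were 6.18%, 4.12% and 29.9%.

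Penk (ENSMUSG00000045573, chromosome 4, 4133531 to 4138819), which encodes the enkephalin precursor of indirect pathway neurons, lay at 686 to 766 CPM (median 720.1) in Q140 striatum and 24.3 to 30.1 CPM (median 27.6) in Q140 cortex. Wild-type Penk was at 1635 to 1985 CPM (median 1783) in striatum and 22.6 to 36.5 CPM (median 28.96) in cortex. The Q140 striata formed a narrow band far below the wild-type striata, and the cortices overlapped. Penk differed between the tissues by 4.74 ± 0.073 in Q140 mice and 5.97 ± 0.072 in wild-type mice, a change of -1.23 ± 0.102 (adjusted p = 4.07e-14), still a large excess in striatum. The gene shares 14.26% of its exon bases with a transcript on the opposite strand, and since the strand setting of the counting is not given in the sources used here, its level is uncertain to that extent. Scn4b (ENSMUSG00000046480, chromosome 9, 45138395 to 45154152), the beta-4 sodium channel subunit, lay at 1032 to 1134 CPM (median 1073) in Q140 striatum and 146 to 189 CPM (median 166) in Q140 cortex. Wild-type Scn4b was at 2166 to 2688 CPM (median 2406) in striatum and 164 to 205 CPM (median 189) in cortex. Scn4b differed between the tissues by 2.72 ± 0.051 in Q140 mice and 3.68 ± 0.051 in wild-type mice, a change of -0.96 ± 0.073 (adjusted p = 1.74e-15), and again no Q140 mouse reached the wild-type range. Slc4a11, a transporter of the bicarbonate family, had 3.31 to 5.08 CPM (median 4.47) in Q140 striatum, against 11.7 to 17.4 CPM (median 16.5) in wild-type striatum, and its difference was 1.32 ± 0.13 in Q140 mice and 2.63 ± 0.11 in wild-type mice, a change of -1.31 ± 0.17 (adjusted p = 3.56e-08). For Shisa2, an endoplasmic reticulum protein, the change was -1.18 ± 0.24 (adjusted p = 0.000169), with 7 of 8 Q140 mice below all wild-type mice.

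**Figure D3:**
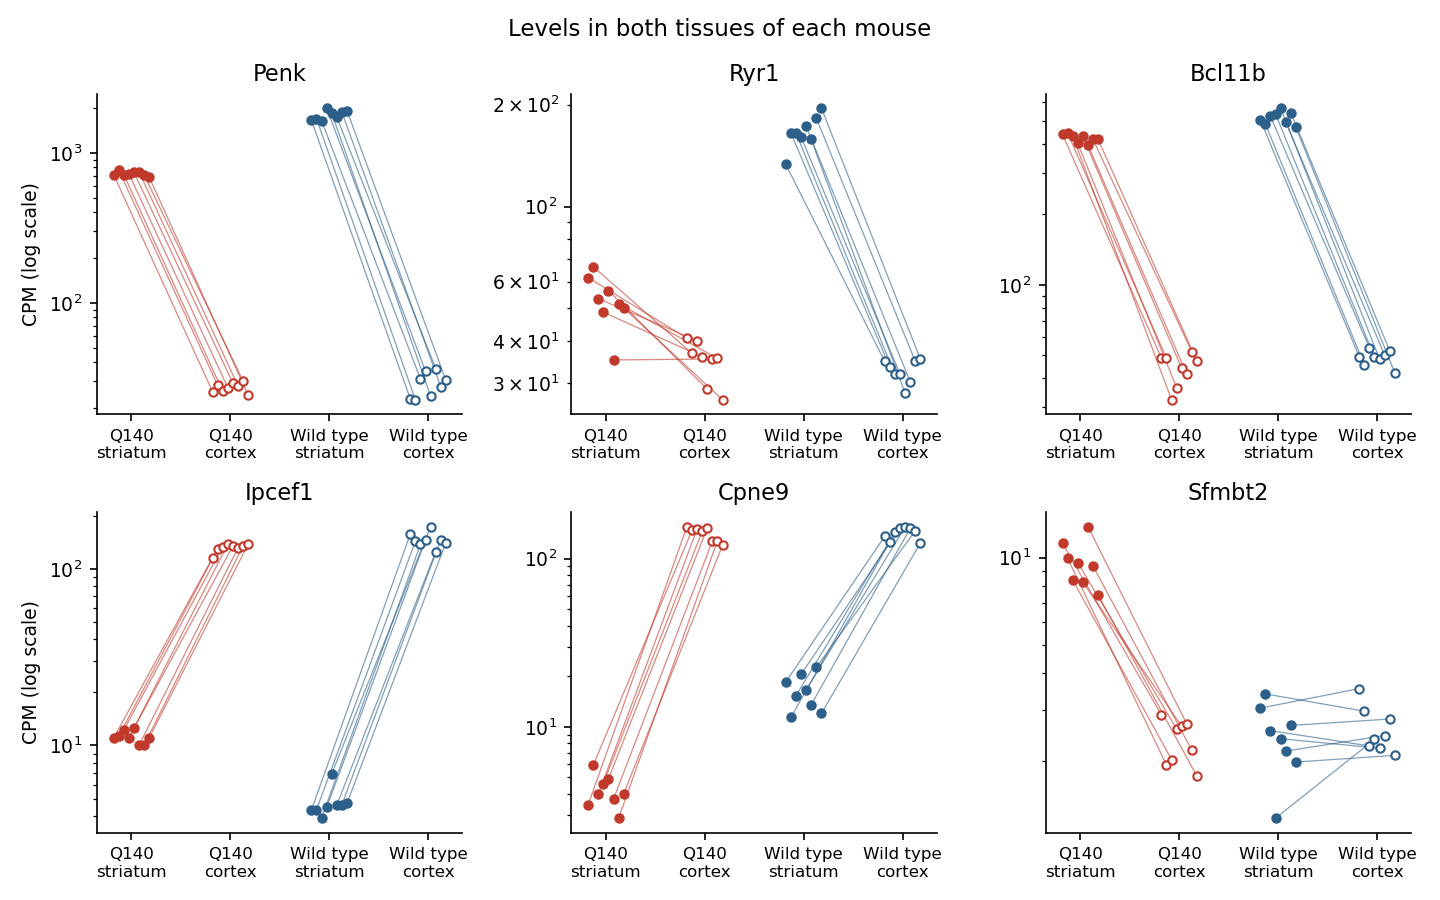
Level of 6 genes in CPM (log scale) in striatum (filled) and cortex (open) of the 8 Q140 mice (red, left) and the 8 wild-type mice (blue, right), with a line joining the tissues of a mouse. Penk and Ryr1 are lower in all Q140 striata than in all wild-type striata, Bcl11b keeps its slope, Ipcef1 and Sfmbt2 are higher in all Q140 striata, and Cpne9 is lower there.

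Most members of the striatal projection neuron identity list shrank. This list, like the others, was written with earlier results of these data known. Of 44 listed genes, all tested, 43 were striatum-higher in Q140 mice, against 37.7% of all genes. The change was called lower in 36 of them and higher in 1, against 8.82% and 9.59% of all genes, and the median change was -0.45, against 0.015 over all genes. In wild-type terms 36 shrank, 1 grew and 3 were kept. The median regional difference of the list was still 2.83 in Q140 mice. Arpp21 (ENSMUSG00000032503, chromosome 9, 112065091 to 112235938), a phosphoprotein regulated by cyclic AMP, lay at 968 to 1115 CPM (median 1064) in Q140 striatum, against 1704 to 2160 CPM (median 1869) in wild-type striatum. Arpp21 differed between the tissues by 1.45 ± 0.032 in Q140 mice and 2.13 ± 0.032 in wild-type mice, a change of -0.68 ± 0.045 (adjusted p = 8.50e-18). Every Q140 mouse lay below every wild-type mouse in the within-mouse difference of Arpp21. Rgs14, a regulator of G protein signalling, lay at 38.4 to 49.3 CPM (median 42.7) in Q140 striatum, against 71.3 to 101 CPM (median 83.4) in wild-type striatum, and its regional difference was 0.36 ± 0.055 in Q140 mice and 1.36 ± 0.053 in wild-type mice, a change of -1.003 ± 0.076 (adjusted p = 2.06e-15), so that little of the striatal excess was left.

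Many genes of dopamine, adenosine and cyclic AMP signalling changed as well. Of 35 tested, 22 were striatum-higher and 12 cortex-higher in Q140 mice, against 37.7% and 34.9% of all genes. The change was called lower in 16 (45.7%, against 8.82% of all genes) and higher in 5 (14.3%, against 9.59%, and 3 without wild-type mouse 13-1), with a median of -0.18, and 17 members shrank while 8 were kept. Adcy5 (ENSMUSG00000022840, chromosome 16, 35154877 to 35305738), the main adenylyl cyclase of striatum, lay at 1307 to 1425 CPM (median 1360) in Q140 striatum and 124 to 140.2 CPM (median 132) in Q140 cortex. Wild-type Adcy5 was at 2084 to 2328 CPM (median 2185) in striatum and 122 to 152 CPM (median 141) in cortex. Adcy5 differed between the tissues by 3.38 ± 0.0302 in Q140 mice and 3.98 ± 0.0301 in wild-type mice, a change of -0.61 ± 0.043 (adjusted p = 9.92e-17). Drd1 (ENSMUSG00000021478, chromosome 13, 54051183 to 54055705), the D1 dopamine receptor, lay at 225 to 253 CPM (median 247) in Q140 striatum and 3.25 to 5.94 CPM (median 4.38) in Q140 cortex. Wild-type Drd1 was at 338 to 408 CPM (median 386) in striatum and 4.58 to 5.96 CPM (median 5.45) in cortex. The D1 receptor's striatal levels did not overlap between genotypes, but its within-mouse differences did, and the change was -0.37 ± 0.093 (adjusted p = 0.00299). Of the 9 direct pathway markers, 9 were striatum-higher in Q140 mice and the change was called lower in 3 and higher in 0. On log2 FPKM plus 0.1 and plus 1 it was called lower in 2 each time and higher in 2 and 3. Without mouse 13-1 it was called higher in 1. Within striatum alone, 4 of the 9 were called lower in Q140 mice and 3 higher. The sign of that list's median, 0.017, turned under RLE scaling. Of the 8 indirect pathway markers tested, the change was called lower in 4 and higher in 1, with a median of -0.53. In wild-type terms 3 of these markers shrank and 2 grew, and 1 was called cortex-higher in Q140 mice.

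Phosphodiesterases break cyclic nucleotides down again. Of 17 tested, 10 were striatum-higher and 6 cortex-higher in Q140 mice, and the change was called lower in 4 (23.5%, against 8.82% of all genes) and higher in 1 (5.88%, against 9.59%), with a median of -0.089. Pde1b (ENSMUSG00000022489, chromosome 15, 103503034 to 103530052), stimulated by calcium and calmodulin, was tightly grouped at 1200 to 1228 CPM (median 1209) in Q140 striatum and 139 to 164 CPM (median 145) in Q140 cortex. Wild-type Pde1b was at 1725 to 1974 CPM (median 1900) in striatum and 134 to 158 CPM (median 146) in cortex. Pde1b differed between the tissues by 3.04 ± 0.029 in Q140 mice and 3.67 ± 0.029 in wild-type mice, a change of -0.62 ± 0.041 (adjusted p = 9.00e-18). Pde10a, the phosphodiesterase most typical of striatal projection neurons, lay at 1343 to 1618 CPM (median 1542) in Q140 striatum, against 2473 to 2868 CPM (median 2714) in wild-type striatum. Pde10a differed between the tissues by 4.403 ± 0.098 in Q140 mice and 5.02 ± 0.097 in wild-type mice, a change of -0.61 ± 0.14 (adjusted p = 0.00083). Its within-mouse differences overlapped, and its cortical levels ran from 58.3 to 82.1 CPM in Q140 mice and from 58.4 to 114 CPM in wild-type mice. Among amine and neuropeptide receptors the change was called lower in 10 of 43 (23.3%) and higher in 4 (9.3%), with a median of -0.10. Cnr1 (ENSMUSG00000044288, chromosome 4, 33924593 to 33948831), the CB1 cannabinoid receptor, lay at 212 to 286 CPM (median 244) in Q140 striatum and 138 to 171 CPM (median 155) in Q140 cortex. Wild-type Cnr1 was at 424 to 626 CPM (median 475) in striatum and 143 to 177 CPM (median 153) in cortex. Cnr1 differed between the tissues by 0.66 ± 0.074 in Q140 mice and 1.65 ± 0.073 in wild-type mice, a change of -0.99 ± 0.104 (adjusted p = 8.06e-11). Chrm4, the M4 muscarinic receptor, had a difference of 0.89 ± 0.058 in Q140 mice and 1.52 ± 0.056 in wild-type mice, a change of -0.63 ± 0.081 (adjusted p = 1.90e-08), with no overlap between the mice of the genotypes.

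Ion channels and the postsynaptic density also held genes whose difference shrank. Of 38 sodium and calcium channel genes tested, 16 were called lower in the change (42.1%, against 8.82% of all genes). The change was called higher in 4 (10.5%, near the 9.59% of all genes), or in 2 without either mouse 24-1 or mouse 13-1. The median was -0.12, with 15 shrunk (39.5%, against 10.42% of all genes) and 15 kept (39.5%, against 28.55%). Potassium channels had 16 of 59 lower (27.1%) and 6 higher (10.2%, again near the share of all genes), with a median of -0.061. Kcnh4, a voltage-gated potassium channel, had 40.8 to 53.3 CPM (median 48.4) in Q140 striatum and 42.01 to 55.2 CPM (median 44.6) in Q140 cortex. Wild-type Kcnh4 was at 67.8 to 99.4 CPM (median 88.03) in striatum and 39.7 to 53.8 CPM (median 47.3) in cortex. Its regional difference was 0.056 ± 0.061 in Q140 mice and 0.88 ± 0.058 in wild-type mice, a change of -0.83 ± 0.084 (adjusted p = 3.72e-11), and it was not called in Q140 mice. Itpr1, the inositol trisphosphate receptor, lay at 1243 to 1345 CPM (median 1275) in Q140 striatum, against 1771 to 2008 CPM (median 1946) in wild-type striatum, and its difference was 0.33 ± 0.029 in Q140 mice and 0.82 ± 0.029 in wild-type mice, a change of -0.49 ± 0.041 (adjusted p = 5.96e-14). Glutamate receptors and their scaffolds had 15 of 39 identifiers lower in the change (38.5%) and 6 higher (15.4%), or 3 higher without mouse 24-1. Their median was -0.12, with 13 shrunk (33.3%) and 14 kept (35.9%). Shank3 (ENSMUSG00000022623, chromosome 15, 89499623 to 89560261), a scaffold of the postsynaptic density, lay at 395 to 428 CPM (median 409) in Q140 striatum and 309 to 369 CPM (median 340.4) in Q140 cortex. Wild-type Shank3 was at 575 to 664 CPM (median 596) in striatum and 336 to 367 CPM (median 342) in cortex. Shank3 differed between the tissues by 0.28 ± 0.031 in Q140 mice and 0.81 ± 0.031 in wild-type mice, a change of -0.53 ± 0.044 (adjusted p = 2.34e-14). Grik2, the kainate receptor subunit GluK2, lay at 108 to 126 CPM (median 117) in Q140 striatum, against 157 to 185 CPM (median 173) in wild-type striatum, with a difference of 1.34 ± 0.038 in Q140 mice and 1.91 ± 0.038 in wild-type mice, a change of -0.56 ± 0.054 (adjusted p = 3.72e-12). Camk2b, the beta subunit of calcium/calmodulin-dependent kinase II, was below the wild-type range in every Q140 striatum, at 1322 to 1442 CPM (median 1384) in Q140 striatum, against 1727 to 1796 CPM (median 1763) in wild-type striatum. Its difference was 0.69 ± 0.021 in Q140 mice and 0.99 ± 0.021 in wild-type mice, a change of -0.299 ± 0.029 (adjusted p = 8.26e-12).

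**Figure D4:**
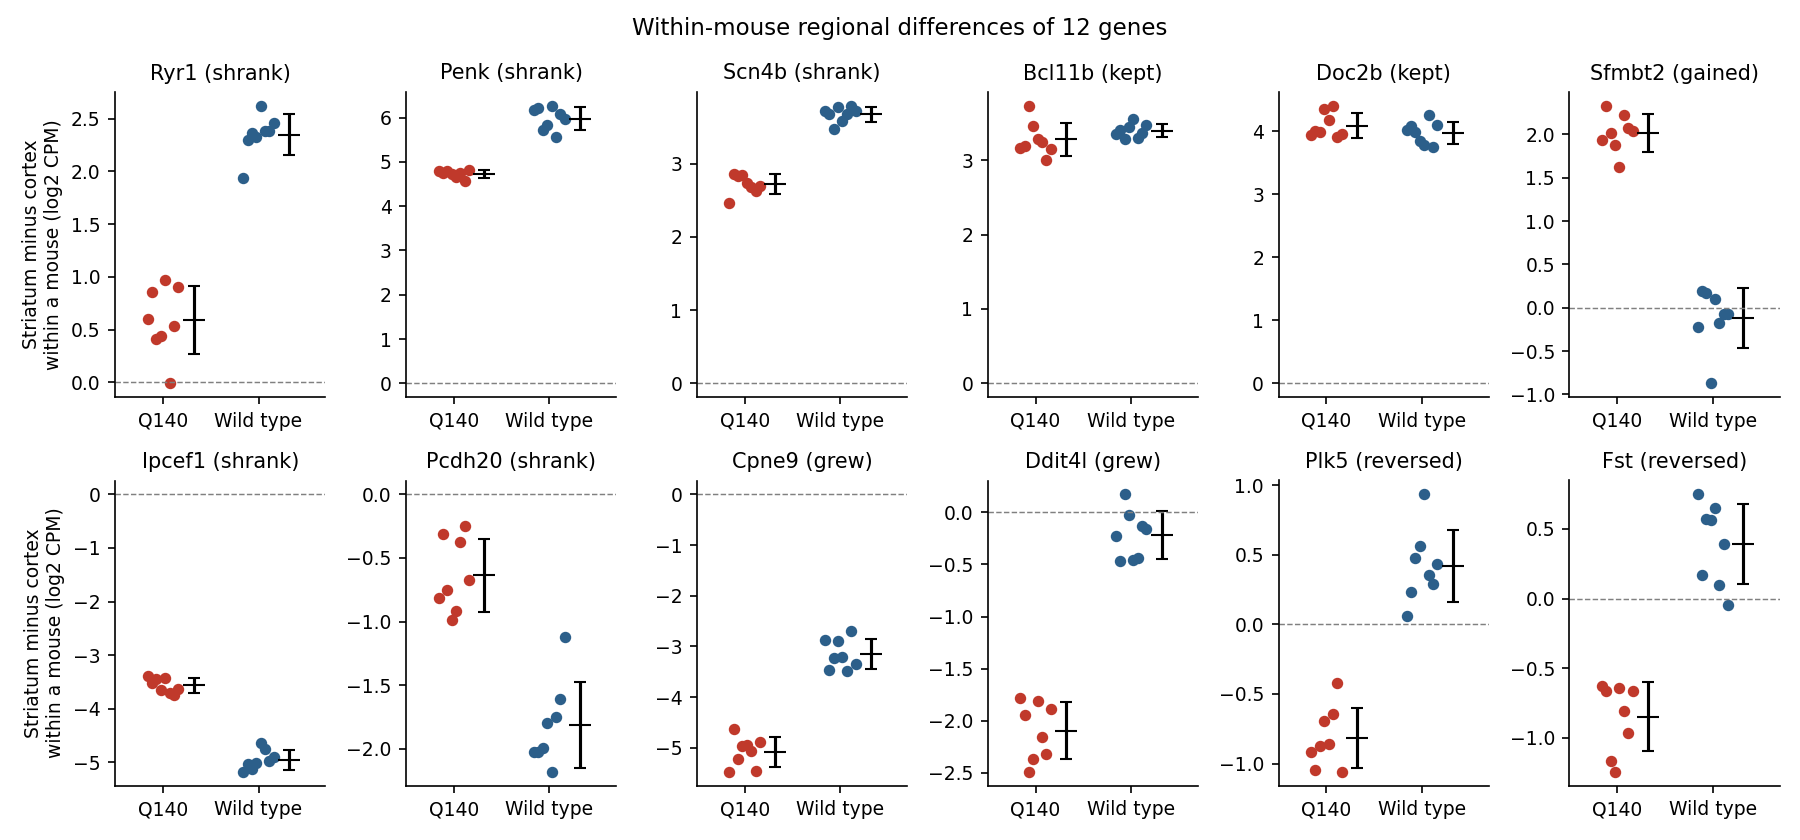
Striatum minus cortex difference within each mouse, in log2 CPM, for 12 genes in 8 Q140 mice (red, left) and 8 wild-type mice (blue, right), with group means and SD and a dashed line at 0. The genotypes do not overlap for the genes that shrank, grew, were gained or reversed, whereas Bcl11b and Doc2b, which were kept, overlap.

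Among transcription factors that set up the striatum, some kept their regional difference and some did not. Of 30 tested subpallial and striatal factors, 23 were striatum-higher in Q140 mice. The change was called lower in 5 (16.7%, against 8.82% of all genes) and higher in 2 (6.67%, against 9.59%), with a median of 0.051. Of the 30, 5 were kept (16.7%, against 28.55% of all genes) and 6 shrank (20%, against 10.42%). Bcl11b (ENSMUSG00000048251, chromosome 12, 107910403 to 108003602), a zinc finger factor of striatal projection neurons, lay at 394 to 444 CPM (median 424) in Q140 striatum and 32.4 to 51.8 CPM (median 45.6) in Q140 cortex. Wild-type Bcl11b was at 469 to 567 CPM (median 514) in striatum and 42.1 to 53.9 CPM (median 49.3) in cortex. Within striatum it was lower in Q140 mice, with a log2 change of -0.29 ± 0.033 (adjusted p = 9.53e-10), while the regional difference was 3.27 ± 0.057 in Q140 mice and 3.396 ± 0.056 in wild-type mice and the 95% interval of the change was -0.28 to 0.037. Dlx6, a homeobox factor of ventral forebrain neurons, had a difference of 3.36 ± 0.069 in Q140 mice and 3.41 ± 0.066 in wild-type mice and an interval of -0.25 to 0.14 for the change. Meis2, Foxo1 and Foxp1 shrank. Meis2, a homeobox factor, had a difference of 2.701 ± 0.043 in Q140 mice and 3.08 ± 0.043 in wild-type mice, a change of -0.38 ± 0.061 (adjusted p = 3.02e-06). Foxo1, a forkhead factor downstream of insulin signalling, had one of 2.83 ± 0.048 in Q140 mice and 3.31 ± 0.048 in wild-type mice, a change of -0.48 ± 0.067 (adjusted p = 2.21e-07). Foxp1, a forkhead factor of striatal projection neurons, had one of 1.48 ± 0.042 in Q140 mice and 1.74 ± 0.042 in wild-type mice, a change of -0.27 ± 0.059 (adjusted p = 0.000611). Only for Foxo1 among these 3 did the mice of the genotypes not overlap, and there by a narrow margin.

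The largest striatum-higher differences that were kept include Doc2b, a calcium sensor of vesicle fusion. Doc2b (ENSMUSG00000020848, chromosome 11, 75768966 to 75796049) lay at 155 to 182 CPM (median 166) in Q140 striatum and 7.46 to 11.5 CPM (median 10.4) in Q140 cortex. Wild-type Doc2b was at 150.1 to 193 CPM (median 169) in striatum and 7.79 to 13.4 CPM (median 10.7) in cortex. Both tissues overlapped between the genotypes, and the difference was 4.09 ± 0.061 in Q140 mice and 3.97 ± 0.059 in wild-type mice, with an interval of -0.051 to 0.29 for the change. Necab2, a neuronal calcium-binding protein, had a difference of 3.66 ± 0.058 in Q140 mice and 3.78 ± 0.056 in wild-type mice (interval of the change -0.28 to 0.043), and Ankrd63, an ankyrin repeat gene, one of 3.48 ± 0.064 in Q140 mice and 3.55 ± 0.063 in wild-type mice (-0.25 to 0.11). Both were called lower in Q140 striatum, at -0.29 ± 0.029 and -0.201 ± 0.045, so a kept regional difference does not mean that the striatal level was the same.

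Cholinergic interneurons are the other well-known striatal cell type that cortex has few of. Of 15 cholinergic markers tested, 13 were striatum-higher in Q140 mice, against 37.7% of all genes. The change was called lower in 0, against 8.82% of all genes, and higher in 1 (6.67%, against 9.59%). That call was lost without the mouse as a block, with RLE scaling, with no filter, in DESeq2, with the 32 libraries alone and without mouse 24-1 or mouse 13-1, while 2 were called higher on log2 FPKM. Chat (ENSMUSG00000021919, chromosome 14, 32408203 to 32465989), choline acetyltransferase, lay at 33.2 to 38.5 CPM (median 34.6) in Q140 striatum and 0.309 to 0.838 CPM (median 0.672) in Q140 cortex. Wild-type Chat was at 33.1 to 39.6 CPM (median 37.2) in striatum and 0.2997 to 1.34 CPM (median 0.683) in cortex. The ranges overlapped in both tissues, and its regional difference was 5.85 ± 0.18 in Q140 mice and 5.69 ± 0.17 in wild-type mice. Slc5a7, the high-affinity choline transporter, had a difference of 5.85 ± 0.12 in Q140 mice and 6.03 ± 0.12 in wild-type mice. For neither gene was the change past the test (adjusted p = 0.742 and 0.521), and with cortical levels near 1 CPM the intervals of the change, -0.34 to 0.65 and -0.51 to 0.15, do not show that the differences were equal.

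Oligodendrocyte genes had the largest kept share of the 30 lists. Of 15 tested, 15 were striatum-higher in Q140 mice, against 37.7% of all genes, and 14 were kept, against 28.55%. The change was called in 0 by edgeR in either direction, against 18.4% of all genes. With no filter on low counts 1 was called lower, and under the other alternatives that test for a change 0 were called. Within striatum alone, 4 of the 15 were called lower in Q140 mice and 0 higher, against 14.2% and 15.5% of all genes. Mobp (ENSMUSG00000032517, chromosome 9, 120149707 to 120181484), a myelin protein, lay at 687 to 1006 CPM (median 861) in Q140 striatum and 207 to 244 CPM (median 237) in Q140 cortex. Wild-type Mobp was at 874 to 1201 CPM (median 1017) in striatum and 224 to 298 CPM (median 254) in cortex. Mobp differed between the tissues by 1.897 ± 0.058 in Q140 mice and 1.98 ± 0.058 in wild-type mice. Ermn, a cytoskeletal protein of myelin, had a difference of 1.74 ± 0.061 in Q140 mice and 1.71 ± 0.061 in wild-type mice. The summed level of 5 oligodendrocyte markers was 4004 to 5909 CPM in Q140 striatum and 1472 to 1805 CPM in Q140 cortex, against 4900 to 6494 CPM in wild-type striatum and 1575 to 1983 CPM in wild-type cortex.

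On the cortical side, Igfn1, which encodes a protein with immunoglobulin-like and fibronectin domains, had the largest difference of a named gene, -9.67 ± 0.66 in Q140 mice and -10.4 ± 0.88 in wild-type mice, with 18 counts over the 8 striatal libraries of Q140 mice and 10 over those of wild-type mice. Several of the next largest belong to genes known from pyramidal neurons. Slc17a7 (ENSMUSG00000070570, chromosome 7, 45163949 to 45176142), the vesicular glutamate transporter VGLUT1, lay at 1.29 to 4.47 CPM (median 3.32) in Q140 striatum and 1185 to 1414 CPM (median 1307) in Q140 cortex. Wild-type Slc17a7 was at 1.82 to 3.23 CPM (median 2.52) in striatum and 1312 to 1480 CPM (median 1387) in cortex. Slc17a7 differed between the tissues by -8.71 ± 0.19 in Q140 mice and -9.11 ± 0.21 in wild-type mice, and the change, 0.41 ± 0.29, was not called (adjusted p = 0.366). Slc30a3, which loads zinc into synaptic vesicles, had a difference of -9.002 ± 0.28 in Q140 mice and -9.29 ± 0.31 in wild-type mice, and Tbr1, a T-box factor of deep-layer neurons, one of -7.94 ± 0.21 in Q140 mice and -8.12 ± 0.22 in wild-type mice. Both sit under 1.2 CPM in striatum, and their changes of 0.29 ± 0.42 and 0.19 ± 0.31 were not called. Better-measured cortical genes could be placed as kept. Shank1 (ENSMUSG00000038738, chromosome 7, 44310253 to 44360572), a postsynaptic scaffold, lay at 109.9 to 132 CPM (median 122) in Q140 striatum and 812 to 1017 CPM (median 912) in Q140 cortex. Wild-type Shank1 was at 109 to 138 CPM (median 118) in striatum and 899 to 1041 CPM (median 940.3) in cortex. Shank1 differed between the tissues by -2.897 ± 0.044 in Q140 mice and -2.98 ± 0.044 in wild-type mice, with an interval of -0.042 to 0.21 for the change. Gabra3, a GABA-A receptor subunit, had a difference of -2.34 ± 0.045 in Q140 mice and -2.39 ± 0.045 in wild-type mice and an interval of -0.071 to 0.18.

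Of 41 cortical glutamatergic neuron markers, 31 were cortex-higher and 9 striatum-higher in Q140 mice. The change was called lower in 11 (26.8%, against 8.82% of all genes) and higher in 7 (17.1%, against 9.59%), with a median of -0.078. Pallial and cortical transcription factors had 31 of 37 cortex-higher, and the change was called higher in 6 (16.2%) and lower in 4 (10.8%). Their median was 0.041, and 13 were kept (35.1%, against 28.55% of all genes). Of these 37 factors, 7 shrank (18.9%, against 10.42% of all genes) and 3 grew (8.11%, against 3.32%). Of the 984 cortical differences that shrank, 871 had a called rise in Q140 striatum. Ipcef1 (ENSMUSG00000064065, chromosome 10, 6885796 to 7052478), which binds exchange factors of the cytohesin family, lay at 10.03 to 12.5 CPM (median 11.04) in Q140 striatum and 116 to 138 CPM (median 134) in Q140 cortex. Wild-type Ipcef1 was at 3.87 to 6.901 CPM (median 4.53) in striatum and 125 to 174 CPM (median 145) in cortex. The striatal ranges of the genotypes did not overlap and the cortical ranges did, and the regional difference was -3.57 ± 0.054 in Q140 mice and -4.96 ± 0.071 in wild-type mice, a change of 1.397 ± 0.089 (adjusted p = 1.02e-18). Pcdh20 (ENSMUSG00000050505, chromosome 14, 88464743 to 88471396), a protocadherin, lay at 15.1 to 21.6 CPM (median 16.4) in Q140 striatum and 20.1 to 32.6 CPM (median 27.7) in Q140 cortex. Wild-type Pcdh20 was at 5.92 to 9.24 CPM (median 6.72) in striatum and 20.1 to 28.3 CPM (median 24.7) in cortex. Pcdh20 differed between the tissues by -0.64 ± 0.091 in Q140 mice and -1.81 ± 0.11 in wild-type mice, a change of 1.17 ± 0.14 (adjusted p = 4.06e-09). Rprm, a cell cycle regulator downstream of p53, lay at 7.64 to 13.03 CPM (median 8.81) in Q140 striatum, against 2.45 to 5.99 CPM (median 3.97) in wild-type striatum, and its regional difference was -0.11 ± 0.12 in Q140 mice and -1.38 ± 0.14 in wild-type mice, a change of 1.26 ± 0.18 (adjusted p = 3.53e-07).

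Neurod2, a factor of cortical projection neurons, showed the same direction at the lower limit of detection. It had 5 to 15 counts per library in Q140 striatum, against 1 to 8 in wild-type striatum, where the 8 libraries held 75 and 31 counts in all. In cortex it lay at 85.8 to 107 CPM (median 101) in Q140 mice, against 82.2 to 106 CPM (median 99.8) in wild-type mice. The within-mouse differences overlapped between the genotypes, and the change was 1.21 ± 0.398 (adjusted p = 0.016). The call did not pass in DESeq2 or on log2 FPKM plus 1. The summed level of the 9 cortical markers in striatum, given above for both genotypes, overlapped, and its part in this change was not tested.

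A GABA-A receptor subunit and an axon guidance ligand lost part of a cortical excess as well. Gabrb2, the beta-2 subunit, lay at 131 to 159.9 CPM (median 142) in Q140 striatum, against 109 to 143 CPM (median 115) in wild-type striatum, and its difference was -0.497 ± 0.049 in Q140 mice and -0.82 ± 0.049 in wild-type mice, a change of 0.33 ± 0.069 (adjusted p = 0.000343). Of 16 GABA receptor genes tested the change was called higher in 5 (31.25%, against 9.59% of all genes) and lower in 2 (12.5%). The median was -0.045, and 3 were called each way without mouse 24-1 or without mouse 13-1. Slit2, a repellent ligand of Robo receptors, had a difference of -2.28 ± 0.12 in Q140 mice and -2.94 ± 0.13 in wild-type mice, a change of 0.66 ± 0.17 (adjusted p = 0.00383). Among 50 axon guidance genes the change was called higher in 6 and lower in 4 (median 0.034), and 16 were kept. These are 12%, 8% and 32%, near the 9.59%, 8.82% and 28.55% of all genes, and without mouse 13-1 the change was called higher in 2.

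A smaller set of cortical differences grew. Cpne9 (ENSMUSG00000030270, chromosome 6, 113282307 to 113305627), a copine that binds phospholipids in the presence of calcium, lay at 2.87 to 5.904 CPM (median 3.98) in Q140 striatum and 120.1 to 155 CPM (median 146) in Q140 cortex. Wild-type Cpne9 was at 11.4 to 22.6 CPM (median 15.9) in striatum and 124 to 154 CPM (median 145) in cortex. Cortical levels were alike in range and all Q140 striata were lower, and the regional difference was -5.08 ± 0.13 in Q140 mice and -3.13 ± 0.088 in wild-type mice, a change of -1.96 ± 0.16 (adjusted p = 3.89e-15). Ddit4l (ENSMUSG00000046818, chromosome 3, 137621612 to 137628333), an inhibitor of mTOR signalling, lay at 7.83 to 10.7 CPM (median 9.28) in Q140 striatum and 33.4 to 46.7 CPM (median 39.1) in Q140 cortex. Wild-type Ddit4l was at 32.1 to 47.99 CPM (median 40.3) in striatum and 36.2 to 54.5 CPM (median 48.7) in cortex. The difference of Ddit4l was -2.1 ± 0.0901 in Q140 mice and -0.22 ± 0.0698 in wild-type mice, a change of -1.89 ± 0.11 (adjusted p = 2.41e-19), with no overlap between the mice. Mas1, a receptor of angiotensin fragments, had a difference of -2.37 ± 0.12 in Q140 mice and -0.77 ± 0.087 in wild-type mice, a change of -1.599 ± 0.15 (adjusted p = 3.99e-13). Zbtb18 (ENSMUSG00000063659, chromosome 1, 177442351 to 177450764), a zinc finger repressor, lay at 83.6 to 95.96 CPM (median 89.7) in Q140 striatum, against 137 to 169 CPM (median 149) in wild-type striatum, with a difference of -2.22 ± 0.032 in Q140 mice and -1.51 ± 0.031 in wild-type mice, a change of -0.705 ± 0.044 (adjusted p = 1.29e-18). Kcnh3, a potassium channel related to Kcnh4, had 136 to 154 CPM (median 144) in Q140 striatum, against 187 to 229.6 CPM (median 210.2) in wild-type striatum, and its difference was -0.61 ± 0.033 in Q140 mice and -0.11 ± 0.033 in wild-type mice, a change of -0.503 ± 0.047 (adjusted p = 1.73e-12). Slc1a2, the glutamate transporter of astrocytes, had one of -0.51 ± 0.034 in Q140 mice and -0.298 ± 0.034 in wild-type mice, a change of -0.22 ± 0.048 (adjusted p = 0.000722), and Sema7a, a membrane-anchored semaphorin, one of -1.52 ± 0.056 in Q140 mice and -1.15 ± 0.055 in wild-type mice, a change of -0.36 ± 0.078 (adjusted p = 0.00041).

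A set of striatal differences grew too. Sox11 (ENSMUSG00000063632, chromosome 12, 27334264 to 27342574), a factor of immature neurons, lay at 23.9 to 37.9 CPM (median 35.4) in Q140 striatum and 10.1 to 13.4 CPM (median 11.8) in Q140 cortex. Wild-type Sox11 was at 10.3 to 23.5 CPM (median 18.6) in striatum and 8.99 to 11.6 CPM (median 10.5) in cortex. Sox11 differed between the tissues by 1.55 ± 0.087 in Q140 mice and 0.81 ± 0.095 in wild-type mice, a change of 0.75 ± 0.13 (adjusted p = 1.28e-05), and 7 of 8 Q140 mice were above all wild-type mice. Gpr149, an orphan G protein-coupled receptor, lay at 13.6 to 21.9 CPM (median 15.6) in Q140 striatum, against 7.37 to 12.9 CPM (median 9.68) in wild-type striatum, and its difference was 5.02 ± 0.18 in Q140 mice and 4.29 ± 0.19 in wild-type mice, a change of 0.74 ± 0.26 (adjusted p = 0.0404). Rdh12, a retinol dehydrogenase, had a difference of 1.36 ± 0.14 in Q140 mice and 0.45 ± 0.15 in wild-type mice, a change of 0.92 ± 0.204 (adjusted p = 0.000587), and Mrap2, an accessory protein of melanocortin receptors, one of 1.16 ± 0.104 in Q140 mice and 0.33 ± 0.11 in wild-type mice, a change of 0.83 ± 0.15 (adjusted p = 2.79e-05). For these 3 genes the mice of the genotypes did not overlap, though those of Gpr149 nearly met. Scg2, a secretory granule protein, lay at 248 to 361 CPM (median 333) in Q140 striatum, against 226 to 328 CPM (median 278) in wild-type striatum, with a difference of 1.22 ± 0.054 in Q140 mice and 0.82 ± 0.054 in wild-type mice, a change of 0.396 ± 0.076 (adjusted p = 7.75e-05). Onecut2, a homeobox factor, had one of 3.93 ± 0.093 in Q140 mice and 3.58 ± 0.0904 in wild-type mice, a change of 0.36 ± 0.13 (adjusted p = 0.0459). The calls of Gpr149 and Onecut2 were lost without the mouse as a block and in DESeq2.

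Some genes set the tissues apart in Q140 mice alone. Sfmbt2 (ENSMUSG00000061186, chromosome 2, 10370510 to 10595253), a Polycomb group protein, lay at 7.44 to 12.8 CPM (median 9.47) in Q140 striatum and 1.77 to 2.88 CPM (median 2.38) in Q140 cortex. Wild-type Sfmbt2 was at 1.27 to 3.402 CPM (median 2.46) in striatum and 2.09 to 3.55 CPM (median 2.41) in cortex. Only Q140 striatum stood apart, above the other 3 groups without overlap, and the regional difference was 2.03 ± 0.092 in Q140 mice and -0.097 ± 0.11 in wild-type mice, a change of 2.13 ± 0.14 (adjusted p = 6.12e-18). Asl, argininosuccinate lyase of the urea cycle, lay at 15.6 to 19.7 CPM (median 17.2) in Q140 striatum, against 9.095 to 12.3 CPM (median 9.96) in wild-type striatum, with a difference of 0.75 ± 0.0601 in Q140 mice and 0.049 ± 0.064 in wild-type mice, a change of 0.71 ± 0.088 (adjusted p = 1.03e-08). Pcdhb19, a clustered protocadherin, had a difference of 0.92 ± 0.054 in Q140 mice and 0.102 ± 0.057 in wild-type mice, a change of 0.82 ± 0.079 (adjusted p = 5.00e-12), which is uncertain because near-identical copies of this family can share reads. On the cortical side, Ankrd35 (ENSMUSG00000038354, chromosome 3, 96670131 to 96691032), an ankyrin repeat gene, lay at 5.31 to 7.33 CPM (median 6.38) in Q140 striatum and 12.4 to 16.6 CPM (median 14.5) in Q140 cortex. Wild-type Ankrd35 was at 13.5 to 17.8 CPM (median 16.8) in striatum and 13.4 to 18.4 CPM (median 15.04) in cortex. Ankrd35 differed between the tissues by -1.19 ± 0.079 in Q140 mice and 0.089 ± 0.067 in wild-type mice, a change of -1.28 ± 0.103 (adjusted p = 1.34e-14). Homer1, a postsynaptic scaffold, had 138 to 197 CPM (median 164) in Q140 striatum, against 225 to 389.7 CPM (median 277) in wild-type striatum, with a difference of -0.398 ± 0.056 in Q140 mice and 0.104 ± 0.055 in wild-type mice, a change of -0.502 ± 0.078 (adjusted p = 1.85e-06). Ciart, a circadian repressor, had a difference of -0.64 ± 0.072 in Q140 mice and 0.093 ± 0.067 in wild-type mice, a change of -0.73 ± 0.099 (adjusted p = 7.06e-08), and Per1, a clock gene that neuronal activity also induces, one of -0.37 ± 0.055 in Q140 mice and 0.022 ± 0.054 in wild-type mice, a change of -0.39 ± 0.077 (adjusted p = 0.000128).

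In a few genes the tissues exchanged places. Plk5 (ENSMUSG00000035486, chromosome 10, 80356459 to 80365489), a polo-like kinase found in neurons, lay at 11.2 to 15.5 CPM (median 13.5) in Q140 striatum and 18.4 to 28.2 CPM (median 24.4) in Q140 cortex. Wild-type Plk5 was at 31.8 to 40.99 CPM (median 35.7) in striatum and 18.6 to 31.1 CPM (median 27.9) in cortex. Striatum was the lower tissue in 8 of 8 Q140 mice and the higher in 8 of 8 wild-type mice, and the regional difference was -0.82 ± 0.086 in Q140 mice and 0.41 ± 0.074 in wild-type mice, a change of -1.23 ± 0.11 (adjusted p = 1.46e-12). Fst, which encodes follistatin, an inhibitor of activin, lay at 1.31 to 2.98 CPM (median 2.56) in Q140 striatum, against 5.03 to 8.13 CPM (median 5.46) in wild-type striatum, with a difference of -0.84 ± 0.13 in Q140 mice and 0.39 ± 0.11 in wild-type mice, a change of -1.24 ± 0.17 (adjusted p = 1.33e-07), and its within-mouse differences did not overlap between the genotypes. Egr2, an immediate early zinc finger factor, had one of -0.84 ± 0.18 in Q140 mice and 0.49 ± 0.15 in wild-type mice, a change of -1.33 ± 0.23 (adjusted p = 1.87e-05), with mice that overlapped widely.

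Immediate early genes were cortex-higher in 20 of 22 cases in Q140 mice and striatum-higher in 0, against 14 and 2 in wild-type mice. Their change was called lower in 8 (36.4%, against 8.82% of all genes) and higher in 1 (4.55%, against 9.59%), with a median of -0.32. Without the mouse as a block it was called lower in 2 and higher in 0. Without wild-type mouse 13-1 it was called lower in 13, and with no filter on low counts in 16. Egr1, induced by synaptic activity, lay at 238 to 383 CPM (median 300.4) in Q140 striatum and 498 to 636 CPM (median 562) in Q140 cortex. Wild-type Egr1 was at 229.8 to 719.5 CPM (median 440.3) in striatum and 379 to 744 CPM (median 545) in cortex. The striatal levels overlapped, and the difference was -0.86 ± 0.0796 in Q140 mice and -0.35 ± 0.079 in wild-type mice, a change of -0.51 ± 0.11 (adjusted p = 0.000594). Nr4a2, a nuclear receptor, was the member with the opposite sign, with a difference of -3.38 ± 0.15 in Q140 mice and -4.31 ± 0.19 in wild-type mice, a change of 0.93 ± 0.24 (adjusted p = 0.00259). The calls of Egr1, Nr4a2 and Per1 were lost without the block, and that of Nr4a2 also on log2 FPKM plus 1.

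Genes of microglia and blood vessels showed small changes in 1 direction. Of 12 microglial genes tested, 10 were striatum-higher in Q140 mice. The change was called lower in 7 (58.3%, against 8.82% of all genes) and higher in 0, with a median of -0.23. Cx3cr1, the fractalkine receptor, lay at 46.7 to 56.5 CPM (median 48.2) in Q140 striatum and 37.6 to 44.6 CPM (median 42.5) in Q140 cortex. Wild-type Cx3cr1 was at 51.6 to 67.7 CPM (median 56.5) in striatum and 36.05 to 47.5 CPM (median 39.1) in cortex. Cx3cr1 differed between the tissues by 0.23 ± 0.039 in Q140 mice and 0.54 ± 0.039 in wild-type mice, a change of -0.31 ± 0.055 (adjusted p = 2.27e-05). Csf1r, the receptor that maintains microglia, had a difference of 0.16 ± 0.037 in Q140 mice and 0.39 ± 0.037 in wild-type mice, a change of -0.23 ± 0.053 (adjusted p = 0.00094), and it shares 15.12% of its exon bases with a gene on the opposite strand. Of 10 endothelial genes the change was called lower in 5 and higher in 0, with a median of -0.23, against 8.82% of all genes called lower. The 5 became 8 without Q140 mouse 24-1, with no filter and with the 32 libraries alone, and 7 with RLE scaling. Flt1, a receptor of vascular endothelial growth factor, had a difference of -0.19 ± 0.039 in Q140 mice and 0.070 ± 0.039 in wild-type mice, a change of -0.26 ± 0.055 (adjusted p = 0.000287). Of 15 astrocyte genes the change was called lower in 2 (13.3%, against 8.82% of all genes) and higher in 0, with a median of -0.10. Aqp4, the water channel of astrocyte endfeet, had a difference of -0.51 ± 0.040 in Q140 mice and -0.201 ± 0.0397 in wild-type mice, a change of -0.31 ± 0.056 (adjusted p = 4.15e-05). In striatum the summed level of 3 microglial markers was 97.4 to 112 CPM in Q140 mice, against 109 to 131 CPM in wild-type mice, and that of 3 endothelial markers was 93.4 to 107 CPM in Q140 mice, against 111 to 124 CPM in wild-type mice. In cortex the microglial sum was 87.2 to 98.9 CPM in Q140 mice, against 80.4 to 96.3 CPM in wild-type mice. TMM factors of the striatal libraries also differed, at 1.018 to 1.04 in Q140 mice and 0.97 to 1.004 in wild-type mice, and their part in these small shared changes was not tested.

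**Figure D5:**
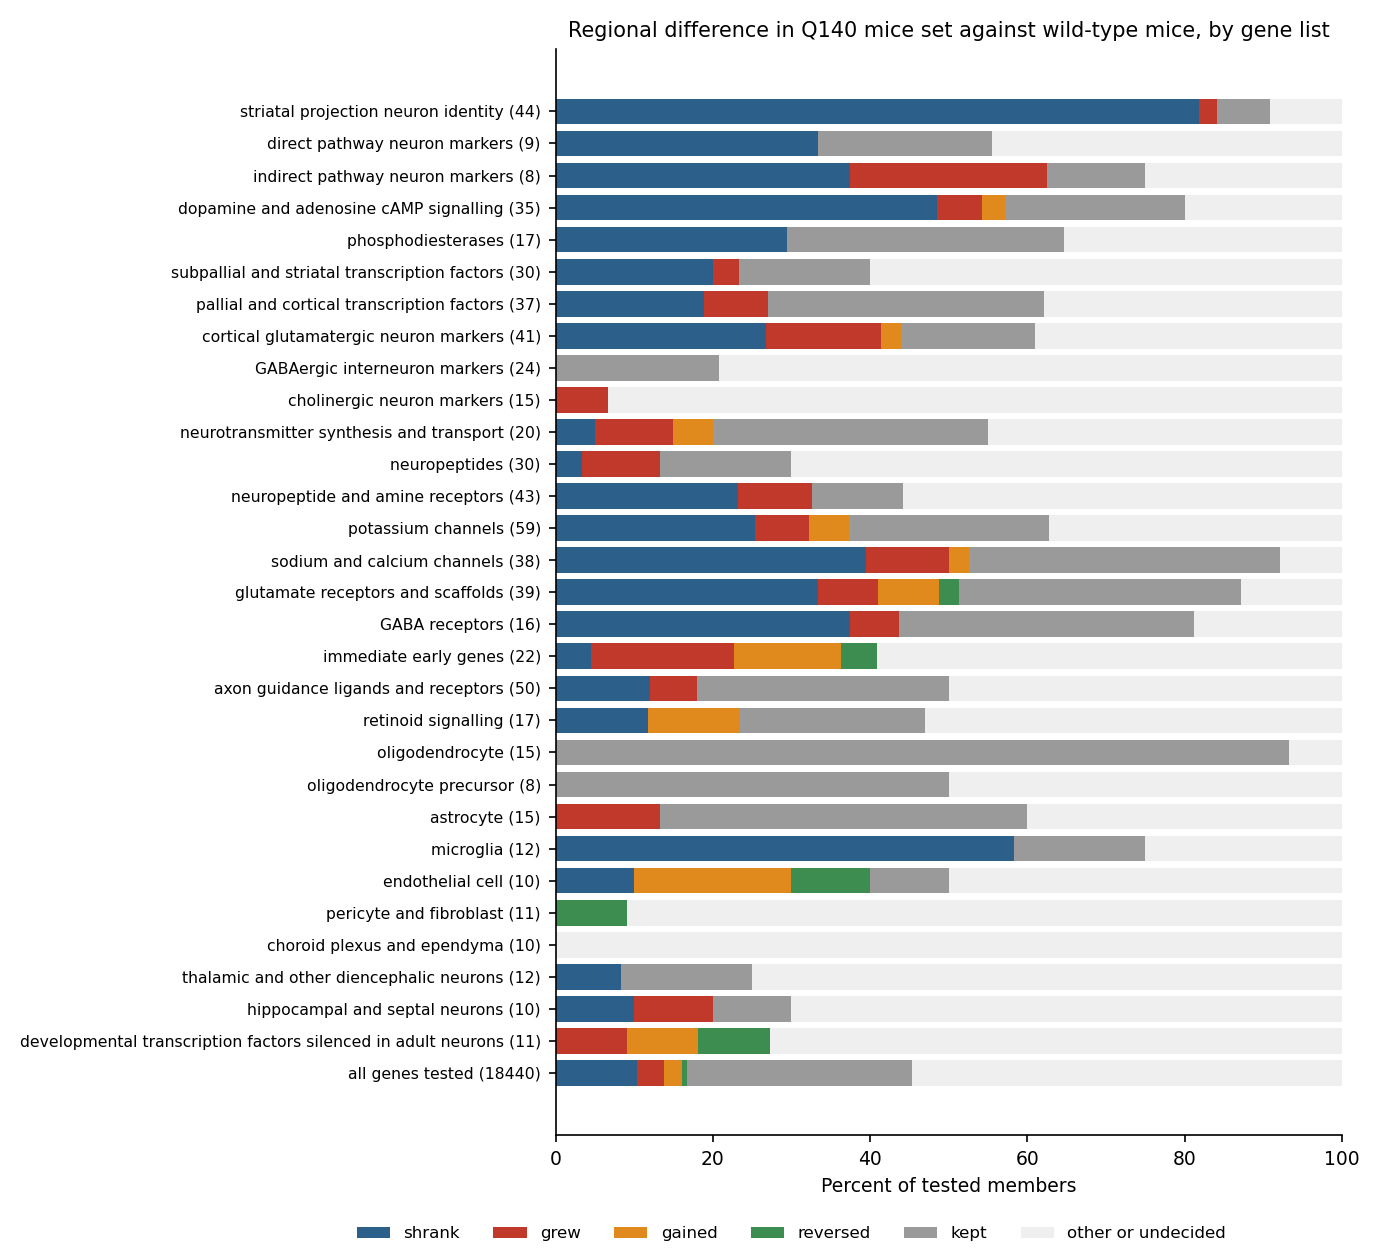
Percent of the tested members of each of 30 gene lists (number of members in brackets) whose regional difference shrank, grew, was gained, reversed or was kept in Q140 mice set against wild-type mice, with all 18440 genes in the lowest bar. The blue part (shrank) covers 36 of 44 projection neuron identity genes, against 10.42% of all genes. The grey part (kept) covers 14 of 15 oligodendrocyte genes, against 28.55% of all genes. The lists were written with earlier results of these data known.

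The same contrast was run between the mice with Msh6+/- or Msh6-/-, which are other animals fitted in the same model. Those without Q140 also chose the genes of the scores above. Between Q140 Msh6+/- and Msh6+/- mice the regional difference changed in 4171 genes (22.6%), 2258 higher (12.2%) and 1913 lower (10.4%). It changed between Q140 Msh6-/- and Msh6-/- mice in 3830 (20.8%), 2050 higher (11.1%) and 1780 lower (9.65%). Of the 1769 genes that were higher in Q140 mice, 1216 were also called higher with Msh6+/- (68.74%, and 53.85% of that list) and 1127 with Msh6-/- (63.71% and 54.98%). Of the 1626 that were lower, 1214 (74.66% and 63.46%) and 1175 (72.26% and 66.01%) were called lower. In both comparisons 0 of them were called in the opposite direction by edgeR. Tested directly, the change with Msh6-/- differed from that with Msh6+/+ in 0 genes by edgeR, with 900 genes at an unadjusted p below 0.05 and a smallest adjusted p of 0.891.

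For Ryr1 the change was -1.52 ± 0.10 with Msh6+/- and -1.62 ± 0.102 with Msh6-/-, next to -1.75 ± 0.101 with Msh6+/+. Penk changed by -0.78 ± 0.102 and -0.94 ± 0.102, next to -1.23 ± 0.102, and Adora2a by -0.97 ± 0.17 and -0.77 ± 0.17, next to -1.32 ± 0.18. Ipcef1 was close in all 3 settings, at 1.43 ± 0.089, 1.49 ± 0.0897 and 1.397 ± 0.089. So were Cpne9, at -2.18 ± 0.17, -2.18 ± 0.17 and -1.96 ± 0.16, and Sfmbt2, at 1.97 ± 0.14, 2.23 ± 0.14 and 2.13 ± 0.14. Bcl11b, kept in Msh6+/+ mice, was called lower, at -0.23 ± 0.0797 with Msh6+/- (adjusted p = 0.0263) and -0.37 ± 0.079 with Msh6-/- (adjusted p = 0.000397). Slopes of the regional contrast averaged 0.944 ± 0.00994 in Q140 Msh6+/- mice and 0.938 ± 0.0147 in Q140 Msh6-/- mice (SD, n = 8 each), beside 0.938 ± 0.0165 in Q140 mice.

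The genes that define the cross had small regional differences of their own. Htt (ENSMUSG00000029104, chromosome 5, 34761740 to 34912534) lay at 204 to 227 CPM (median 219) in Q140 striatum and 246 to 284 CPM (median 270) in Q140 cortex. Wild-type Htt was at 222 to 245 CPM (median 238) in striatum and 267 to 308 CPM (median 279) in cortex. Htt differed between the tissues by -0.29 ± 0.032 in Q140 mice and -0.26 ± 0.031 in wild-type mice, with an interval of -0.12 to 0.055 for the change, and so it was kept. Msh6 (ENSMUSG00000005370, chromosome 17, 87975062 to 87990892) lay at 17.96 to 19.9 CPM (median 18.6) in Q140 striatum and 19.04 to 22.04 CPM (median 20.4) in Q140 cortex. Wild-type Msh6 was at 14.4 to 18.3 CPM (median 17.4) in striatum and 18.5 to 21.1 CPM (median 19.4) in cortex. Msh6 differed between the tissues by -0.11 ± 0.049 in Q140 mice and -0.19 ± 0.049 in wild-type mice, with an interval of -0.058 to 0.22. The Htt counts do not distinguish the knock-in from the wild-type allele.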

How the data were processed

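RNA sequencing measured 96 libraries from striatum and cortex of 48 mice. The authors deposited a table of read counts per gene, used for all tests, and one of FPKM values, which are the counts over a fixed gene length and the column total. Libraries were TruSeq stranded, per the labels' protocols. Reads were aligned to GRCm38 (mm10) with STAR 2.7.5c, with SAMtools 1.10 and HTSeq 0.12.3 used for handling and counting, per the submitters' processing notes. The strand setting of the counting is not given in the sources used here.

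Groups and mouse numbers came from the labels. Counts were fitted with edgeR 4.0.16 in R 4.3.3 (quasi-likelihood, TMM, filterByExpr with a minimum count of 10 and a minimum total of 15) over all 96 libraries, with a term for each mouse and a striatum term for each of 6 genotypes. Q140 against wild type within a tissue was fitted on its 48 libraries with genotype and sex. The mouse number pairs the tissues: across 13893 genes the residuals of a mouse's tissues had a median r of 0.311 in Q140 and 0.314 in wild-type mice, against -0.115 and -0.081 between mice, and 8 of 8 mice in each genotype matched best with their own. The fit was tested on simulated counts.

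Alternatives were no mouse block, RLE scaling, no filter, DESeq2 1.42.0, the 32 libraries alone, an adjusted p of 0.1 and limma 3.58.1 (limma-trend) on log2(FPKM + 0.1) and log2(FPKM + 1) where the mean FPKM reached 0.1. Genes are named by a rule: mean log2 CPM of at least 1, then the largest regional differences, changes and kept differences, and the leading members of 30 gene lists, with Htt and Msh6. Genes known only by a predicted or clone name enter the counts alone, and a few genes the rule selects are not reported here. Members, lists and rule were chosen with earlier results of these data known. Nothing in the labels says whether mice shared litters or were processed on the same day.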

Additional observations from a re-analysis of the deposited data

Results flagged for a closer look

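Between Q140 and wild-type mice, the regional difference was higher in 1769 genes and lower in 1626, each by the test of the difference itself. The scores differed between the genotypes too, by -0.0879 for striatum-higher genes, 0.0663 for cortex-higher genes and -0.046 for the slope.

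Single mice stood apart from the other 7 of their genotype, with a gap to the nearest mouse above Dixon's 95% critical value, in 13 of 164 groups tested. Chance flags about 1 in 20 groups. Mouse 24-1 had the lowest slope of the Q140 mice (0.902) and the lowest Q140 difference of Shisa2 (0.165). Mouse 13-1 had the lowest slope of the wild-type mice (0.938) and their lowest difference of Ryr1 (1.93). Results without these 2 mice are given beside the scores and below. The other Q140 mice with a distant value were 26-1 for Syndig1l (8.64), 18-5 for Zbtb18 (-2.07) and Gpr149 (5.7), and 19-3 for Slc1a2 (-0.753). Among wild-type mice they were 16-1 for Six3 (7.89) and Sfmbt2 (-0.872), 18-1 for Slc5a7 (6.82), 21-1 for Nr4a2 (-5.11) and 16-2 for Sema7a (-1.58). All these are within-mouse log2 differences. For Six3 they rest in cortex on a few counts per library.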

How the results depend on the processing

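Of 175 recomputed counts and scores, 147 stayed within 1.5 times the reported count or kept their call, 26 moved further and 2 scores lost their call. Of 790 recomputed changes of single genes, 761 kept direction and call, 20 lost the call, 5 gained one and 4 turned in sign, and of 790 regional differences in Q140 mice 787 kept both and 3 lost the call. With no replicate block, so without pairing the tissues by mouse, the change was called in 2639 genes, 2616 of them shared with the 3395 reported, and 3127 were called with the 32 libraries alone, of which 2854 were shared. In none of the alternatives was a shared gene called in the opposite direction.

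Genes with a higher regional difference in Q140 mice numbered 1174 with no filter, 3365 on log2 FPKM plus 0.1 and 3386 plus 1. Striatum-higher gained genes numbered 152 with no filter, 161 in DESeq2, 173 with the 32 libraries alone, 632 and 655 on FPKM, and 162 without Q140 mouse 24-1. Cortex-higher reversed genes numbered 43, 42, 119 at an adjusted p of 0.1, 177 and 175 on FPKM, and 45 without 24-1 or without wild-type mouse 13-1. On FPKM (plus 0.1, then 1) the striatum-higher genes that grew numbered 661 and 719, and 186 without mouse 13-1. In the same order the cortex-higher genes that grew numbered 184 and 179, those gained 96 and 93, and the striatum-higher genes that reversed 36 and 34, while 1522 cortex-higher genes shrank on FPKM plus 0.1. The FPKM settings tested more genes and do not apply TMM. The cortex-higher score with genes at least 4-fold apart (0.0654) and the striatum-higher score without 24-1 (-0.0705) lost their calls. Leaving out either mouse was chosen after seeing the data, and the cause of these moves was not tested. Changes near 0 that turned in sign, none of them called, were those of Six3 (-0.156 in DESeq2), Htt (0.020 and 0.019 on FPKM) and Chat (-0.086 without 13-1). Depth limits the ratios of genes under about 1 CPM in a tissue, for which the interval of the change is wide.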

Other observations

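The remaining lists are given by their counts, beside 9.59% of all genes with a higher and 8.82% with a lower change. Of 24 interneuron markers tested, 14 were cortex-higher and 7 striatum-higher in Q140 mice, and the change was called in 0 by edgeR (median -0.063). With no filter on low counts 1 was called higher and 4 lower, and on log2 FPKM plus 0.1 and plus 1 it was 2 and 3 higher. Neuropeptide genes had 3 of 30 lower in the change and 1 higher (median -0.14), and genes of neurotransmitter synthesis and transport 3 of 20 lower and 1 higher (median -0.0033). Of 17 retinoid signalling genes the change was called lower in 4, which is 23.5%, and higher in 0 (median 0.0017).

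Markers of neighbouring regions and other cells were included to see what else the dissections hold. Of 8 oligodendrocyte precursor genes and 10 choroid plexus and ependyma genes the change was called in 0 by edgeR (medians -0.010 and 0.25). With the 32 libraries alone, and without Q140 mouse 24-1, 1 precursor gene was called lower, and with no filter 1 choroid plexus gene was called higher. Pericyte and fibroblast genes had 3 of 11 lower (median -0.18), thalamic genes 2 of 12 lower (median -0.059) and hippocampal and septal genes 2 of 10 higher (median 0.0092). The thalamic calls became 0 without the mouse as a block, and 1 with the 32 libraries alone or without mouse 13-1. Only 1 hippocampal or septal gene was called higher without the block, in DESeq2 and with the 32 libraries alone. Of 47 developmental transcription factors silenced in adult neurons, 11 passed the filter on low counts. The change was called higher in 3 of the 11, and the median over the 11 was -0.13. In DESeq2 0 were called, without the mouse as a block and with RLE scaling 2, and on log2 FPKM 1. With the 32 libraries alone 8 were tested and 2 called higher. A gene can pass that filter by its counts in a single group, so these calls were not set against the share of all genes. In striatum, 4 choroid plexus markers summed to 22.4 to 33.7 CPM in Q140 mice, against 20.5 to 39.6 CPM in wild-type mice. Haemoglobin transcripts reached at most 17.5 CPM in Q140 striatum (median 2.37), against at most 10.1 CPM in wild-type striatum (median 0.215). In cortex their medians were 3.23 CPM in Q140 mice and 0.477 CPM in wild-type mice.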
